A study of Homo sapiens with 2 samples.

Results

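The genes described here encode pyruvate dehydrogenase and the enzymes that switch it off and on: the kinases PDK1, PDK2, PDK3 and PDK4, the phosphatases PDP1 and PDP2, and the complex subunits PDHA1, PDHB, DLAT and PDHX. They were chosen by name, as probe sets that the array annotation maps to a single one of these 10 symbols, and 9 of the 10 were found, each with 1 probe set, among 18377 genes. PDP2 had no probe set under its own symbol and has no value here. A filter on dim signals asked that the brighter array reach 4.01, which is the middle value, over probe sets, of the signal averaged across both arrays, and 8 members and 11469 genes in all passed it.

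Pyruvate dehydrogenase sits in the mitochondrial matrix and turns pyruvate, the end product of glycolysis, into acetyl-CoA for the citric acid cycle. Its kinases phosphorylate the alpha subunit of the first enzyme of the complex and shut it down, and its phosphatases remove that phosphate. In hypoxic cells PDK1 is a known target of hypoxia-inducible factor (HIF), which diverts pyruvate to lactate, whereas PDK4 is best known from fasting muscle and liver. PDK1 of this family is not the signalling kinase PDPK1, which is often called by the same name.

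The study measured RNA of LP-1, a cell line long grown from human multiple myeloma, on whole-transcript Affymetrix arrays. The vector control, 1 array, was LP-1 infected with the empty vector pRUF-IRES-GFP (LP-1-pRUF). The HIF2A array, also 1, was LP-1 infected with pRUF-IRES-GFP-HIF2A, which carries full-length human HIF-2α cDNA and expresses it stably (LP-1-HIF2A). Both lines thus carry the vector backbone, and the labels do not say whether either is 1 clone, at what oxygen level the cells grew or whether HIF-2α was made resistant to oxygen-dependent degradation. Values are log2 signals, and differences are HIF2A minus vector control. With 1 array per group there is no replicate check, no test and no error from replicates, and lines that differ by chance cannot be told apart from an effect of HIF-2α.

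EPAS1, which encodes HIF-2α, was measured at 3.70 in the vector control and 9.05 in the HIF2A array, and HIF1A had 6.92 and 6.99. Of 9 plasma cell markers, 8 passed the filter, while 4 of 6 myeloid, 4 of 6 T and NK cell and 3 of 6 stromal markers were in both arrays no brighter than a background limit, the 95th percentile of 339 olfactory receptor genes. That limit was 3.58 in each array. Of the 8 plasma cell markers, 4 were higher and 4 lower with HIF-2α. Lower by 2-fold or more were 2, SLAMF7 at 6.63 and 4.24 and TNFRSF17 at 8.71 and 7.68. Of all genes past the filter, 0.732% were lower by 2-fold or more. The largest rise among the 8 was that of MZB1, at 8.47 and 8.91. The lines thus differ in some identity markers in both directions, whose part in the members' differences was not tested. The median difference over all 11469 genes was 0.03 and their robust SD (scaled median absolute deviation) was 0.34, a spread between genes and not between replicates.

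Because the added factor binds DNA, the windows upstream of the members are shown first. They come from RefSeq on GRCh38.p14 and run from 250 bases before to 50 after each gene's start. Windows were found for 9 of the 10 members, all but PDP1. Those of PDK1 and PDHB, the members furthest apart in opposite directions, and of PDK3 and DLAT, the next in size, are printed 5′ to 3′ along the gene's own strand. Capitals mark the HIF core letters ACGTG or GCGTG on either strand, so that a core on the opposite strand reads CACGT or CACGC.
PDK1, chr2:172555123-172555422, strand +: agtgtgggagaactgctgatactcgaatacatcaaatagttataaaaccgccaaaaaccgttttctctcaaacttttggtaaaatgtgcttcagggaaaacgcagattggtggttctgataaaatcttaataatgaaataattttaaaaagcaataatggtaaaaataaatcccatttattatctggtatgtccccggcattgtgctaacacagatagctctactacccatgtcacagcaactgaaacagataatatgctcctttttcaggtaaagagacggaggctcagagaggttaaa
PDK3, chrX:24465036-24465335, strand +: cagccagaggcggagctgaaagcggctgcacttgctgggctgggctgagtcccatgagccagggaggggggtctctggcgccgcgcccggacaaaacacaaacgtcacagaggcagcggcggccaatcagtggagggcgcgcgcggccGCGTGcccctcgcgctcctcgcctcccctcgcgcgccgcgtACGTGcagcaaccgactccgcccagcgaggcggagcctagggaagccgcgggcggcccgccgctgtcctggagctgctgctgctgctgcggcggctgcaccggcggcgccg
DLAT, chr11:112025158-112025457, strand +: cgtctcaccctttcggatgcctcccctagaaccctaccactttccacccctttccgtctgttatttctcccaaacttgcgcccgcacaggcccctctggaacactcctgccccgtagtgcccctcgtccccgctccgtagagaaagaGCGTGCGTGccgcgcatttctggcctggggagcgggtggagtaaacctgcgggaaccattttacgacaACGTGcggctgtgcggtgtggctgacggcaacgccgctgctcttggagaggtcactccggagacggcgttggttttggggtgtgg
PDHB, chr3:58433783-58434082, strand -: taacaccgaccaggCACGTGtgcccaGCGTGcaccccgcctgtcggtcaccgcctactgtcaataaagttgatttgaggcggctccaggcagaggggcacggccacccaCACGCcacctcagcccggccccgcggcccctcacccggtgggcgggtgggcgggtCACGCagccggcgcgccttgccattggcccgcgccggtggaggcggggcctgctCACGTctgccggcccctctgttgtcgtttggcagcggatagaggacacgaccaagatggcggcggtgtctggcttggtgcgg

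A core was present in 5 of the 9 windows, against 48.4% of 27305 RefSeq windows and 63.6% of the 9140 that belong to genes past the filter. PDK1 held 0, as did PDK2, PDK4 and PDHX. That says only that these letters are not in this window, and other starts of these genes were not analysed here. The table's start may lie upstream of the main one for PDK1 and PDK2, so neither their 0 cores nor their base composition need describe the promoter in use. PDK3 held 1 ACGTG and 1 GCGTG. DLAT held 1 ACGTG and 2 GCGTG, the latter overlapping by a letter. PDHB, the lower member, held the most, with 3 ACGTG and 3 GCGTG, where its CACGTG, the E box that MYC and MAX bind, counts as an ACGTG on each strand. PDHA1 held 4 GCGTG and PDP2 3 ACGTG, again with a CACGTG. Whether cores go with the direction of a difference was not tested. PDHB is the only lower member, PDP2 has a window but no value, and PDP1 has a value but no window. The windows also differed in base composition, from 36.3% G and C in PDK1 to 74.3% in PDK3.

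**Figure D1:**
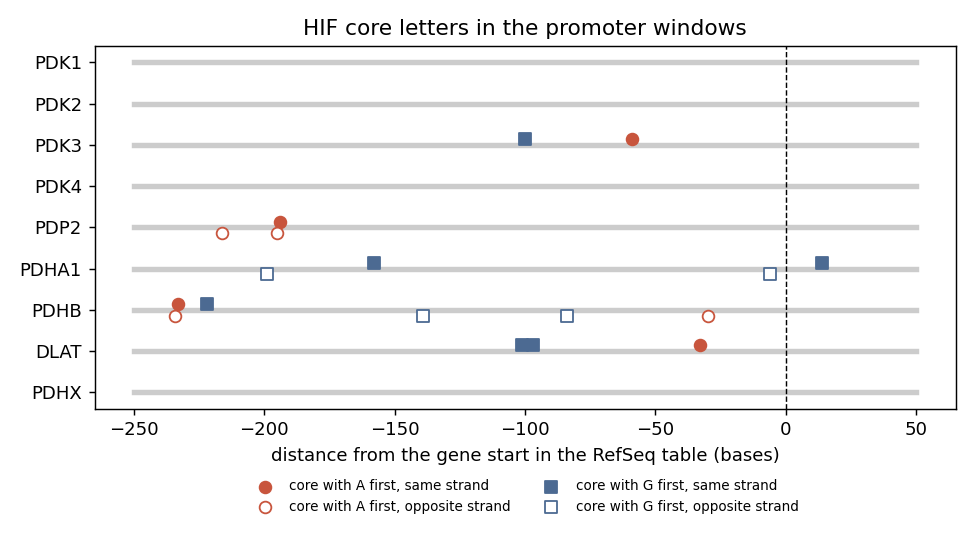
Positions of the HIF core letters in the promoter windows of 9 members, as distance in bases from the gene start in the RefSeq table; filled symbols are on the gene's strand and open ones on the opposite strand. PDK1, PDK2, PDK4 and PDHX show none, and PDHB shows 6, counting its CACGTG on both strands.

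Of the other letters searched on both strands, TGCGCA, part of the site of the nuclear respiratory factor NRF1, was in 0 of the 9 windows, in 8.42% of all windows and in 13.5% of those of genes past the filter. AAGGTCA, the core bound by estrogen-related receptors, was in 0 of 9, in 3.97% of all and in 2.44% of those past the filter. The CCAAT box was in 7 of 9, all but PDK2 and DLAT, in 35.7% of all and in 36.3% of those past the filter. These matches are descriptions of short letter strings and say nothing of binding in LP-1 cells.

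Among the kinases, PDK1 stood apart. Its signal was 6.89 in the vector control and 8.15 with HIF-2α, a difference of 1.26 or 2.39-fold. Both arrays lay well above background, and 31 genes past the filter had a larger positive difference. By size in either direction, 0.558% of genes differed more. In the tenth of genes with like mean signal the robust SD of differences was 0.36. PDK1 was the only member at least 2-fold higher, 1 of 8 past the filter, where 0.706% of all genes past the filter were at least 2-fold higher.

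PDK3, a kinase that has also been described as a HIF target in other cells, had 4.0 in the vector control and 4.47 with HIF-2α, a difference of 0.47 or 1.39-fold. It lies just inside the filter and passed only through the HIF2A array, and 17.6% of genes differed more in either direction. PDK2, the most widely expressed isoform across tissues, had 4.47 and 4.54, a difference of 0.07. It is dim too, 0.89 and 0.96 log2 units above the background limit, where a change may be compressed. PDK4 had 3.22 and 3.42, both below the background limit, so its level and its difference of 0.20 are not told apart from background, and it is the only measured member outside the filter. Thus 1 kinase was over 2-fold brighter with HIF-2α, 1 slightly brighter at a dim level, 1 nearly equal, also at a dim level, and 1 not detected above background.

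**Figure D2:**
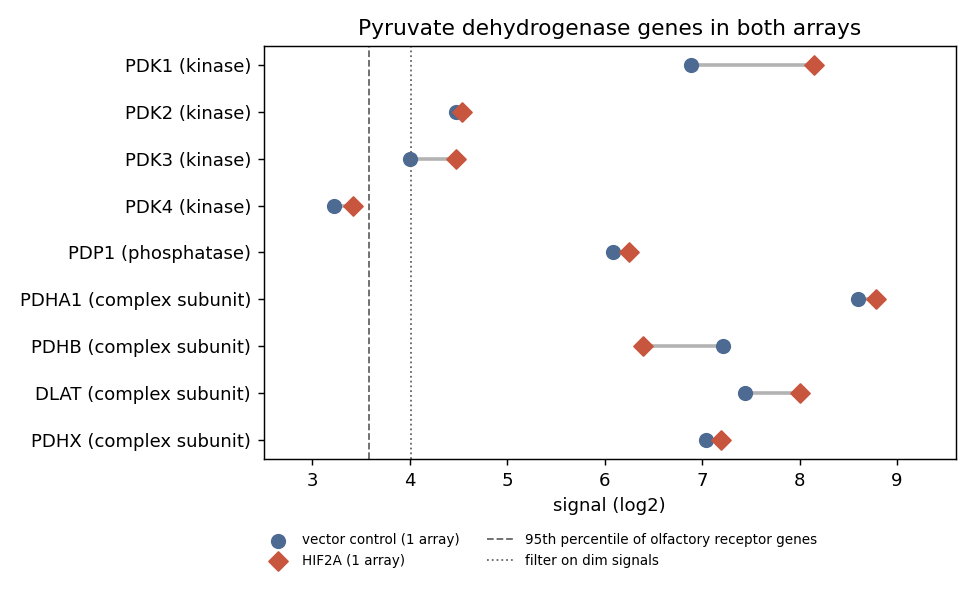
Log2 signal of each measured member in the vector control (circles) and the HIF2A array (diamonds), 1 array each, with the background percentile (dashed) and the filter (dotted). PDK1 runs from 6.89 up to 8.15 and PDHB from 7.21 down to 6.39, while PDK4 lies left of the background line in both arrays; signals are to be read within a gene, since probe sets differ in brightness.

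The phosphatase gene PDP1, whose product is the calcium-stimulated phosphatase of the complex, had 6.09 in the vector control and 6.25 in the HIF2A array. Its difference of 0.16 was exceeded in size by 62.9% of genes, so it lay in the bulk of the distribution. Set against PDP1, PDK1 moved by 1.10 log2 units more, a 2.14-fold shift of the PDK1 signal relative to the PDP1 signal between the arrays. The other kinases stayed closer to PDP1, with PDK2 at -0.09, PDK3 at 0.31 and PDK4, below background, at 0.04. Such a difference of differences is not affected by a shift of a whole array.

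Subunits of the complex did not differ in 1 direction. The first enzyme is built from an alpha and a beta chain in equal number, encoded by PDHA1 and PDHB. PDHA1, which carries the serines that the kinases phosphorylate, had 8.60 and 8.78, a difference of 0.18. PDHB had 7.21 in the vector control and 6.39 with HIF-2α, a difference of -0.82, that is 1.77-fold lower. Partner chains of the same enzyme therefore differed by 1.0 log2 unit from each other in their change. PDHB was lower than in the vector control to an extent that 173 genes past the filter exceeded, and 3.25% of genes differed more in either direction.

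DLAT, the acetyltransferase that forms the core of the complex and carries its lipoyl groups, had 7.44 and 8.0, a difference of 0.56 or 1.47-fold, just under the 1.5-fold mark. PDHX, which anchors the dihydrolipoamide dehydrogenase to that core, had 7.04 and 7.19, a difference of 0.15. In either direction, 11.3% of genes differed more than DLAT, whereas 65% differed more than PDHX, which thus lay in the bulk of the distribution. Over the 4 subunits the median difference was 0.165, with a range from -0.82 to 0.56.

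Of the 8 members past the filter, 7 were higher and 1 lower, where 52.6% of all genes past the filter were higher and 46.1% lower by any amount. At least 1.5-fold higher was 1, PDK1, against 5.67% of all genes, and at least 1.5-fold lower was 1, PDHB, against 4.76%. None was at least 2-fold lower, against 0.732%. The median of the 8 was 0.17, beside 0.03 over all genes, and that of the 3 kinases 0.47. The kinases' median is PDK3's own value, and it came to 0.335 over all 4 kinases without the filter and to 0.17 with 32 added to each linear signal. A gene such as PDK3, which passed only through its brighter HIF2A array, raises such counts and medians by construction.

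**Figure D3:**
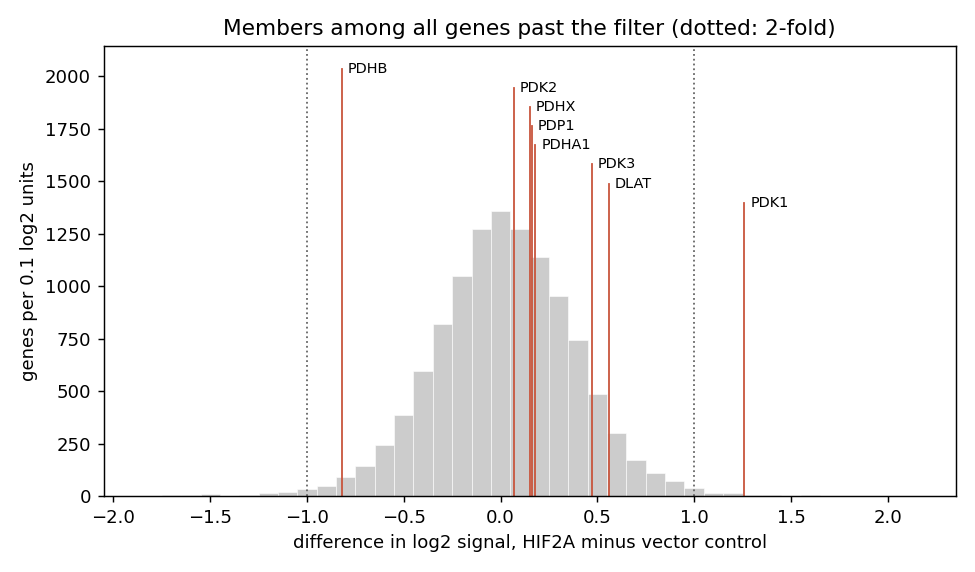
Number of genes past the filter per 0.1 log2 units of difference, HIF2A minus vector control (grey bars), with the 8 members past the filter as red lines whose height has no meaning. PDK1 at 1.26 lies beyond the dotted 2-fold line, PDHB at -0.82 lies in the lower tail, and the other 6 lie between 0.07 and 0.56; genes outside the plotted range, EPAS1 among them, are not shown.

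To show whether genes nearby differed alike, each member was set beside its 20 nearest genes past the filter, 10 on each side. PDK1, on chromosome 2, had neighbours with a median of -0.015, 9 higher and 11 lower, and its difference was larger than that of any of them, the highest being WIPF1 at 1.07. PDHB, on chromosome 3, had neighbours with a median of 0.08, 13 higher and 7 lower, and lay below all 20, the lowest being DENND6A at -0.76. Single neighbours of both genes thus came close to them with the same sign, while the neighbours' medians were near 0.

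DLAT, on chromosome 11, lay among neighbours with a median of 0.175, 12 higher and 8 lower, with ALG9 at 0.71 and FDXACB1 at 0.67, and came to 0.385 with that median subtracted. FDXACB1, at 3.65 and 4.32, and DIXDC1, at 3.88 and 4.14, passed the filter only through the HIF2A array. COLCA1, at 4.14 and 3.99, passed only through the vector control. Such neighbours move the median and the counts towards their brighter array by construction. PDK4, on chromosome 7, had neighbours with a median of -0.22, 13 of them lower. PDHX, also on chromosome 11, had a neighbour median of -0.01. Medians were -0.07 for PDHA1 and for PDK3, both on the X chromosome, -0.055 for PDK2 on chromosome 17 and -0.095 for PDP1 on chromosome 8. Some dim neighbours of other members, PDK1 among them, also passed the filter through a single array. The part of neighbouring genes in the members' differences was not tested beyond these values.

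**Figure D4:**
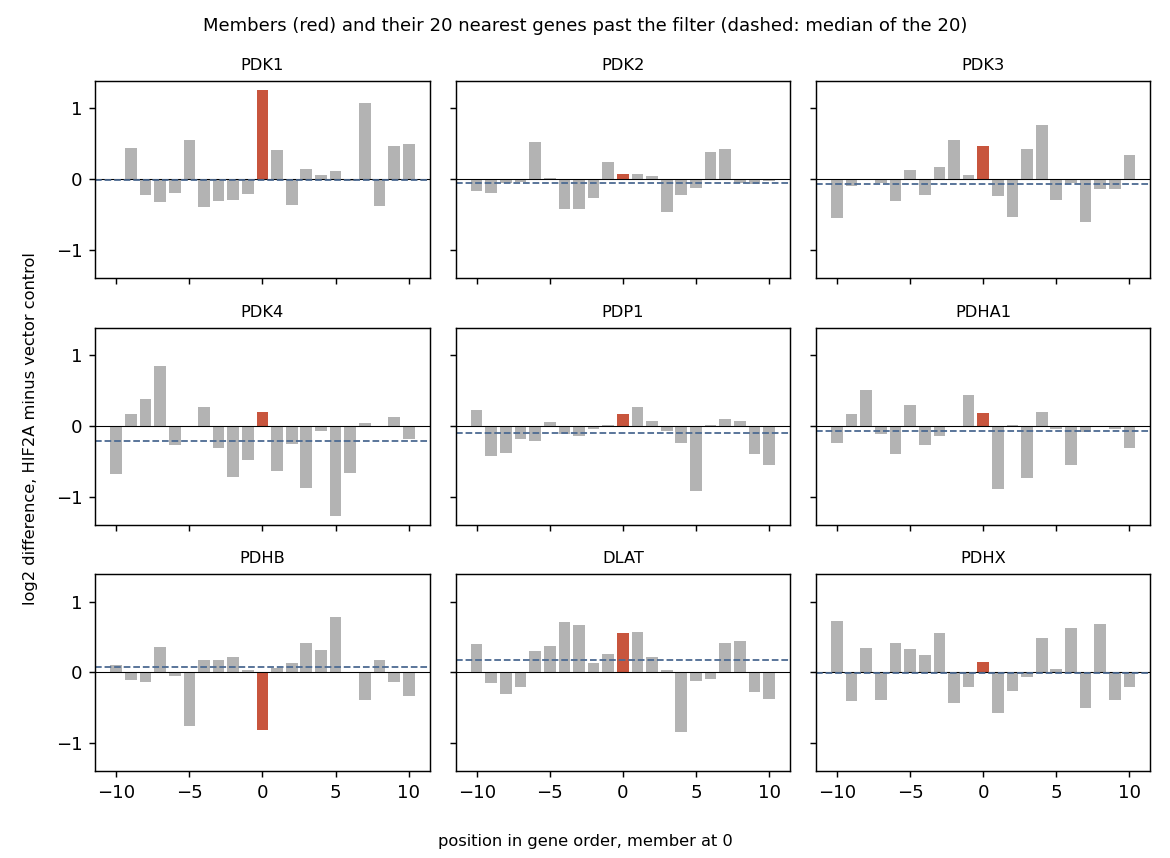
Difference in log2 signal, HIF2A minus vector control, of each member (red, position 0) and of its 20 nearest genes past the filter in chromosome order (grey), with their median (dashed). PDK1 at 1.26 is above and PDHB at -0.82 is below every neighbour, while DLAT at 0.56 stands among several higher genes.

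The 3 genes whose pair of signals was nearest to that of PDK1 by Euclidean distance over the 2 arrays were TNFAIP3, which encodes an inhibitor of NF-kB signalling, at 7.06 and 8.21, the phospholipid transfer protein gene PLTP at 7.09 and 8.22, and the ribosomal protein gene RPL27A at 7.08 and 8.03. Their distances were 0.18, 0.21 and 0.22 log2 units. A likeness over 2 arrays rests on 1 difference per gene.

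Other genes of the complex went both ways within 1.5-fold. DLD, the dihydrolipoamide dehydrogenase shared by all complexes of this kind, had 8.77 and 8.39, a difference of -0.38. PDPR, which restrains the phosphatase, had 6.17 and 6.54, a difference of 0.37, and the testis form PDHA2 was dim at 3.61 and 3.75. Of 9 genes of the sister complexes for 2-oxoglutarate, 2-oxoadipate and branched-chain 2-oxo acids, with the branched-chain kinase and phosphatase, 5 were higher, 3 lower and 1 equal, with a median of 0.03 and 0 at least 1.5-fold apart. The largest difference among them was that of DBT, the branched-chain counterpart of DLAT, at -0.41. DBT, at 4.26 and 3.85, is dim and passed the filter only through the vector control, where it is brighter. BCKDK, the kinase of the branched-chain complex and a relative of the PDKs, had 5.77 and 6.14, a difference of 0.37. For the 4 lipoate and thiamine genes bright enough to pass, the median was -0.055, led by the lipoyl synthase gene LIAS at -0.27.

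Upstream of the complex, PKM and LDHA were brighter with HIF-2α while the genes of the mitochondrial pyruvate carrier were dimmer. PKM, the pyruvate kinase gene, had 9.17 and 9.95, a difference of 0.78. LDHA, the lactate dehydrogenase chain that favours lactate formation, had 11.26 and 12.12, a difference of 0.86. LDHB differed by -0.13. MPC1 and MPC2, which together form the carrier that brings pyruvate into mitochondria, differed by -0.55 and -0.36. SLC16A7, a monocarboxylate carrier gene, differed by -0.70 and BSG by 0.43, while SLC16A1 and SLC16A3 of the same list were not measured. Of the 7 genes of this list past the filter, 3 were higher, 2 of them by 1.5-fold or more, and 4 were lower, 1 of them by 1.5-fold or more. Of all genes past the filter 52.6% were higher, 5.67% by 1.5-fold or more, and 46.1% were lower, 4.76% by 1.5-fold or more. The list as a whole had no direction, with a median of -0.13.

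PC encodes pyruvate carboxylase, the other main entry of pyruvate into the cycle. It had 3.36 in the vector control, below the background limit, and 4.28 in the HIF2A array, 1.62-fold above that limit. PC is dim and passed the filter only through the HIF2A array, where it is brighter, so its place among the higher genes follows in part from the filter. The other 3 genes past the filter that were listed with PC, not all of which consume pyruvate, were GPT, ME2 and PCK2. All were lower, the malic enzyme gene ME2 by the most, at -0.46. GPT, at 4.15 and 3.98, passed the filter only through the vector control, where it is brighter. Of 11 citric acid cycle genes past the filter, 6 were higher, 4 lower and 1 equal, with a median of 0.03. SUCLG2, a GTP-forming succinyl-CoA ligase subunit, was the only one at least 1.5-fold apart, at 4.90 and 4.21. CS, the citrate synthase gene that takes up the acetyl-CoA made by the complex, differed by 0.25.

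**Figure D5:**
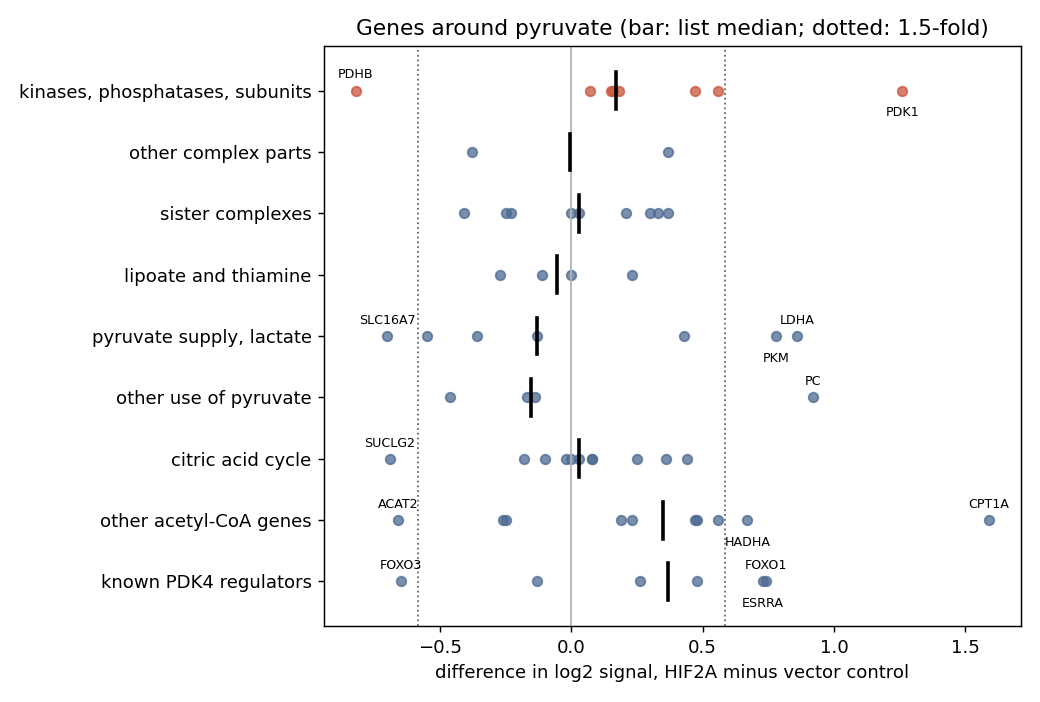
Differences in log2 signal, HIF2A minus vector control, of the genes past the filter in each list (points) with the list median (black bars) and names for genes at least 1.5-fold apart (dotted lines). The citric acid cycle and sister complex genes centre on 0.03, whereas the other acetyl-CoA genes have a median of 0.35 with CPT1A at 1.59. The row named for other use of pyruvate also holds genes that do not consume it.

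Genes of other routes to and from acetyl-CoA ranged from -0.66 to 1.59. CPT1A, which admits long-chain fatty acids to mitochondria, had 4.73 and 6.32, a difference of 1.59 or 3.01-fold. HADHA, HADHB and ACADM, enzymes of fatty acid oxidation, differed by 0.67, 0.56 and 0.47. CPT2 differed by 0.23, and the thiolase gene ACAT1 went the other way, at -0.25. ACAT2, the cytosolic thiolase of sterol synthesis, differed by -0.66. Of these 10 genes 7 were higher, 2 of them by 1.5-fold or more, and 3 were lower, 1 of them by 1.5-fold or more. Their median was 0.35, beside 0.03 over all genes past the filter. Of all those genes 52.6% were higher, 5.67% by 1.5-fold or more, and 4.76% were lower by 1.5-fold or more. ACSS2, at 3.61 and 4.09, passed only through the HIF2A array, which raises the count and the median by construction.

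Of 9 known regulators of PDK4, 8 were measured, all but HNF4A, and 6 passed the filter, which PDK4 did not. FOXO1 had 6.35 and 7.09, a difference of 0.74, and the estrogen-related receptor gene ESRRA had 5.54 and 6.27, a difference of 0.73. FOXO3 had 5.57 and 4.92, a difference of -0.65. Of 6 such genes past the filter 4 were higher and 2 lower, where 52.6% of all genes were higher and 46.1% lower. Their median was 0.37, beside 0.03 over all genes. PPARA, at 3.50 and 3.66, and PPARG, at 3.28 and 3.55, did not pass the filter, and PPARG was below the background limit in both arrays. Among the HIF subunits and hydroxylases past the filter, EGLN1, an oxygen-sensing prolyl hydroxylase, was the other gene besides EPAS1 at least 1.5-fold apart, at 5.05 and 5.70.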

How the data were processed

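The submitters' processing notes name Affymetrix Expression Console, with which the authors made the deposited log2 signals, 1 per probe set and array. The algorithm, its version, the background correction and the array's genome build are, in the sources used here, not given. Base 2 was inferred because the top value, 13.97, is above 11.09, the most that a scanner reading can give as a natural log. Probe sets with a single gene symbol, 19310 of 28869, were named through GEO's platform annotation, and symbols were updated by Entrez number for 19279 of them with the RefSeq table of GRCh38.p14. A gene with several probe sets took the one with the highest mean, which concerned 685 of 18377 genes and no member. Pseudogenes of PDK1 and PDHA1 exist, and cross-hybridization was not analysed. The deposited signals were used without further normalization.

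With 1 array per group no test was possible; counts of genes at least 1.5-fold or 2-fold apart and medians are given beside those of all genes past the filter. The precision of a difference could not be estimated from 1 array per group, and sequencing depth does not apply to arrays. The members and lists were chosen with earlier results of these data known. Named are all members, EPAS1, HIF1A, the 3 genes nearest to PDK1 and, of each pathway list, genes at least 1.5-fold apart or else the largest difference; other list genes and the marker genes were picked after their values were seen. A fold against a signal below background is taken against the olfactory receptor percentile. Alternatives were quantile, median and loess centring (span 0.3, 3 passes), 32 added on the linear scale, other probe sets, filters and folds, and subtraction of the neighbours' median. The code was tested on simulated data. Python 3.11.15, numpy 2.4.6, pandas 2.3.3, statsmodels 0.14.6 and matplotlib 3.10.9 were used.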

Additional observations from a re-analysis of the deposited data

How the results depend on the processing

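Each member has 1 probe set, so taking the mean or the dimmest probe set of a gene could not move a member. Under quantile normalization, median centring, loess centring, 32 added on the linear scale and subtraction of the neighbours' median, each of the 9 measured members kept its sign in all 5, and of 45 values 39 moved by less than 0.1 log2 units. Adding 32 cannot change a sign, and median centring shifts all genes alike. All 5 reuse the same 2 arrays, so kept signs do not stand in for replicates, and PDK4 was below background throughout. PDK1 ranged from 1.07 to 1.28, PDHB from -0.90 to -0.64, DLAT from 0.39 to 0.58 and PDK3 from 0.17 to 0.54. Adding 32, which shrinks dim signals by construction, gave 0.90 for PDK1 minus PDHA1, -0.80 for PDHB minus PDHA1 and 0.17 for the kinases' median. That median came to 0.335 without a filter or with a 25th percentile filter, both of which admit PDK4, and to 1.26 with a 75th percentile filter, which leaves PDK1 alone. Subtracting the neighbours' median gave -1.15 for PDHB minus PDHA1. At a fold of 3, 0 members were higher. The counts of members at least 1.5-fold higher and lower stayed at 1 each in all settings run for them. No paired analysis was possible because each group has 1 array, and for the same reason no replicate could be left out. Signal close to background limits PDK2, PDK3 and PDK4.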
